A study of Mus musculus with 16 samples.

Results

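DNA replication and mitosis are carried out by a set of genes that a resting cell keeps low and a dividing cell turns on. The 47 genes described here were taken by symbol from a table of 27928 genes, and comprise 23 that act in replication and 24 that act in mitosis. They were compared between the main mature B cell subsets of the mouse spleen, the follicular (FO) B cells, which recirculate and answer protein antigens with T cell help, and the marginal zone (MZ) B cells, which sit at the edge of the white pulp and respond fast to blood-borne antigens. RNA was sequenced from sorted CD21lo CD23hi FO and CD21hi CD23lo MZ cells of young adult C57BL/6 mice that were WT, for which the labels name no allele, or Gtf2i fl/flxCD19cre+ (cKO), in which Cre expressed in B cells deletes the floxed gene of the transcription factor TFII-I. There were 2 libraries in each of the 4 groups, 8 in all. The labels do not say whether replicates are separate mice, so the p-values measure only the spread between these libraries.

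The libraries held between 21546552 and 25083552 reads on genes, and each value below is a normalised read count, that is, the reads divided by the size factor of the library. The FO marker Fcer2a, which encodes CD23, lay between 24801.9 and 41973.4 in FO and between 3069.5 and 6707.6 in MZ libraries, and the MZ markers Cr2, Cd1d1, Cd9 and S1pr3 summed to between 24216 and 28246 in FO and between 102580.0 and 116290.0 in MZ, so each library carried the markers of its labelled subset. Gtf2i, counted over the whole gene, was between 1992 and 2864 in WT and between 1523 and 1889 in cKO, lower in each cKO library than in both WT libraries of its subset. Ddx3y, on the Y chromosome, did not exceed 6.34 in WT and lay between 2682 and 5514 in cKO. Xist was between 25929.5 and 47001.6 in WT, 14748 in replicate 1 of cKO FO, which thus held both RNAs, and no more than 89.7 in the remaining cKO libraries. Genotype and sex therefore cannot be told apart.

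Replication starts when the origin recognition complex, Cdc6 and Cdt1 load the hexamer of Mcm2 to Mcm7 onto DNA, and the loaded helicase is activated in S phase by Cdc45, the GINS complex and Mcm10. In mitosis, Cdk1 with its cyclins, the Aurora and Polo kinases and the spindle checkpoint drive the separation of chromosomes by kinesin motors and kinetochore proteins. The genes of the first group are known to be induced late in G1 through E2F sites in their promoters, and those of the second later, in G2, through an element called CHR (cell cycle genes homology region), often beside CCAAT boxes.

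The letters of these elements were looked up in the RefSeq promoter windows of GRCm38.p6, which run from 250 bases before to 50 after each gene's start. The windows were searched on both strands for TTTCCCGC or TTTGGCGC (E2F), TTTGAA (CHR) and CCAAT, with overlapping matches counted. Other spellings of an E2F site were not searched. The run TTTCGCGC, for example, stands unmarked in the Cdk1 stretch below. 38 of the 47 genes had a window. The 9 without one were Aurkb, Gins1, Foxm1, Kif20a, Pole, Ccna2, Gins2, Mcm4 and Tpx2. An E2F match was found in 7 of 19 replication windows (36.8%), in 0 of 19 mitosis windows and in 1.63% of the windows of all 27025 genes. The CHR letters were found in 13 of 19 mitosis windows (68.4%), in 2 of 19 replication windows (10.5%) and in 18.1% of all windows. CCAAT was frequent in both groups, in 14 of 19 replication (73.7%) and 16 of 19 mitosis windows (84.2%), against 37.9% of all. The 2 sets of genes thus differed in the letters searched, which the choice of the genes by name did not use. The E2F counts hold only for the 2 spellings searched.

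The bases before the RefSeq start are shown for 5 of these genes. Ube2c, Top2a and Cdk1 are mitosis genes whose windows held CHR and CCAAT letters, and the latter pair held 2 CHR matches each. Mcm6 held 2 E2F matches and did not pass the test between the subsets given below. Cdc6 held a single E2F match and was higher in MZ cells of the cKO mice. Each is written 5′ to 3′ on the strand of its gene, with the matched letters in capitals. Ube2c is at chr2:164769679-164769928 on the plus strand, Top2a at chr11:99024190-99024439 on the minus strand, Cdk1 at chr10:69352913-69353162 on the minus strand, Mcm6 at chr1:128359706-128359955 on the minus strand and Cdc6 at chr11:98907901-98908150 on the plus strand.
Ube2c: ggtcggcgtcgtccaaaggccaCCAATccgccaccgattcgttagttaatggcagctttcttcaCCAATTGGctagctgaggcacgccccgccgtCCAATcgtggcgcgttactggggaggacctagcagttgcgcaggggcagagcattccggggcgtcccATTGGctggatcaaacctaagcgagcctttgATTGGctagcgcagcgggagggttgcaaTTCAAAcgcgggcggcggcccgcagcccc
Top2a: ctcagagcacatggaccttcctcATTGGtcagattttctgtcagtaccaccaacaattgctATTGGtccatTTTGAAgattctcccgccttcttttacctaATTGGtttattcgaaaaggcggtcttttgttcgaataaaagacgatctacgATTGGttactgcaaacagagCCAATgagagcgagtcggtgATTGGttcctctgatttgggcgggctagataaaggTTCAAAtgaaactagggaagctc
Cdk1: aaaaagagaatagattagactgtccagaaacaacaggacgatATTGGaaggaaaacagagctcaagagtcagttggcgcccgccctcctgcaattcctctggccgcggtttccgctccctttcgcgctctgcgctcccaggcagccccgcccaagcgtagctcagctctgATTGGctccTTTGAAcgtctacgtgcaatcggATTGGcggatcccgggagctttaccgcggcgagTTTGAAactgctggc
Mcm6: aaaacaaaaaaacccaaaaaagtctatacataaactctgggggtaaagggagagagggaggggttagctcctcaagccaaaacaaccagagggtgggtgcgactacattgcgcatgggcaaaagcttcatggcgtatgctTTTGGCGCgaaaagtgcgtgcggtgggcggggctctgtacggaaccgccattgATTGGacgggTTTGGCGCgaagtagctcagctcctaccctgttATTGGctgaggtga
Cdc6: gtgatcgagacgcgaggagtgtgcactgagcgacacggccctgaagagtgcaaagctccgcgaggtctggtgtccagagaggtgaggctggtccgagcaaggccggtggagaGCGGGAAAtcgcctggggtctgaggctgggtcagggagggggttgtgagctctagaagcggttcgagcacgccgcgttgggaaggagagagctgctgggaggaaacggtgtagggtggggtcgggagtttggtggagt
In the Ube2c stretch the run CCAATTGG is a CCAAT on one strand that overlaps a CCAAT on the other. A match of letters is a description and does not show that a factor binds there. In the GENCODE M21 annotation Cdc6 starts earlier, at 98907801, so its whole stretch, with the E2F match, lies inside that gene model. The Ube2c and Cdk1 stretches overlap their GENCODE models in part.

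MZ cells held more RNA of the mitosis genes than FO cells, and more of some replication genes. The difference was taken on the scale of log2(normalised count + 1), and a gene was called when its limma p, adjusted over the 14761 genes with a mean count of at least 10, was no more than 0.05 and the difference was 1.5-fold or larger. All 47 genes passed this filter. In WT mice 17 of the 47 were higher in MZ, against 7.41% of all genes tested, and 0 were lower, against 4.62%. In cKO mice 24 were higher, against 8.18% of all genes, and 0 were lower, against 5.54%. At an unadjusted p under 0.05 by limma, in either direction, there were 29 of the 47 in WT (30.3% of all genes) and 33 in cKO (33.4%). In bulk RNA, more dividing cells and more RNA per cell cannot be told apart.

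The calls fell mostly on mitosis. In WT they comprised 13 of 24 mitosis and 4 of 23 replication genes, and in cKO 15 and 9. The median difference, MZ minus FO, was 1.78 for the mitosis genes in WT (3.44-fold) and 2.05 in cKO (4.15-fold), with all 24 above 0 in both genotypes. It was 0.38 for the replication genes in WT (1.30-fold) and 0.48 in cKO (1.39-fold), with 21 of 23 above 0 in each. The median of all genes tested was -0.0048 in WT and -0.0047 in cKO. Both genotypes called 16 of the genes (6.30% of all genes), 8 were called only in cKO (1.88%) and 1, Plk1, only in WT (1.11%), and no gene passed the test of the difference between genotypes given below. The 8 were Cdc45, Cdc6, Rrm2, Pole, Chaf1a, Cdk1, Nusap1 and Prc1. Medians of the sets were set side by side with no test of the sets. Counts rested on few libraries. Without replicate 2 of WT MZ the WT calls fell to 3 and without replicate 1 of WT FO to 2, and without replicate 1 of cKO MZ the cKO calls fell to 1. DESeq2 on the recovered reads called 29 of the 47 higher in MZ in WT (7.78% of all genes) and 31 in cKO (8.94%), and lower 0 in WT (4.99%) and 1 in cKO (5.99%). edgeR called 17 (7.36%) and 23 (8.14%) higher and 0 (4.6% and 5.39%) lower.

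**Figure D1:**
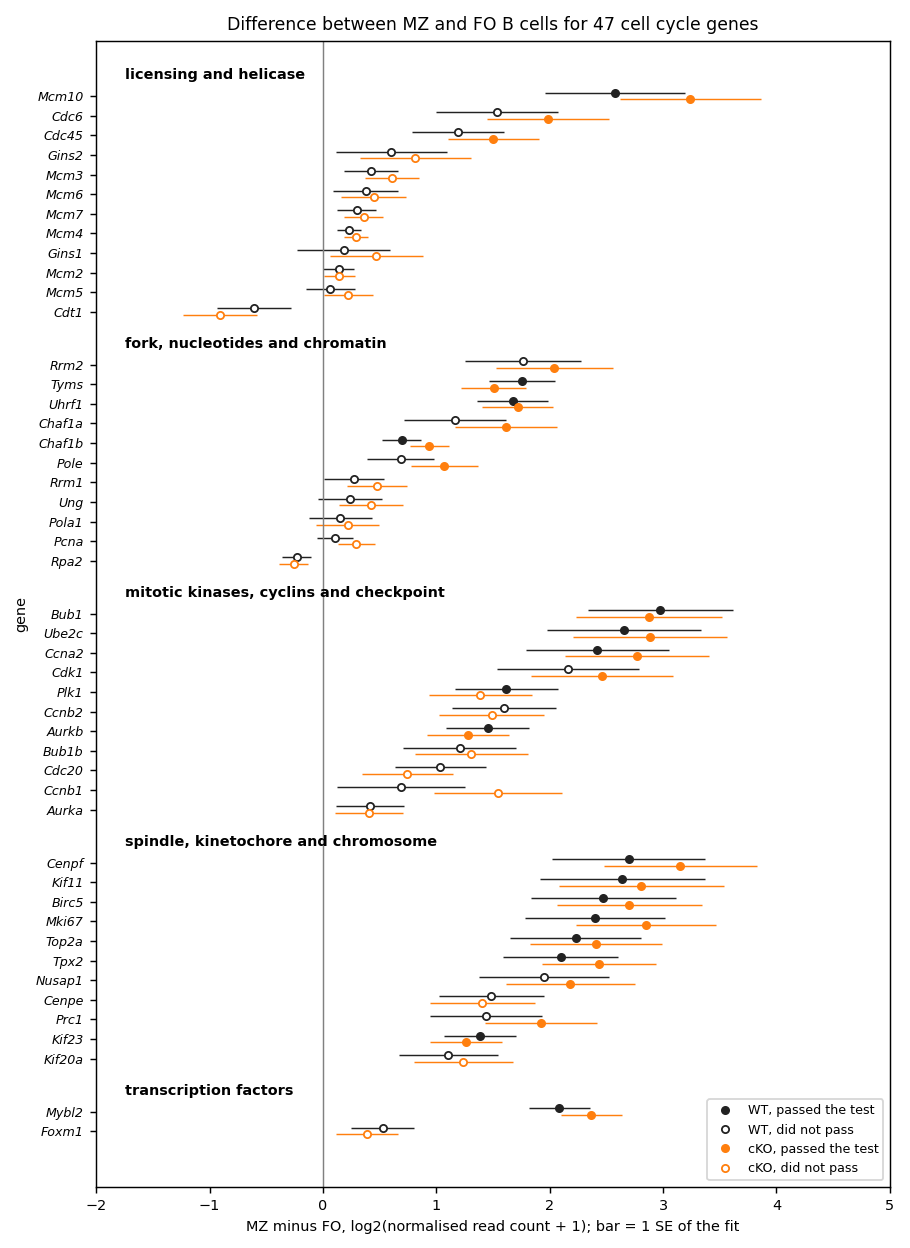
Difference between MZ and FO B cells for each of the 47 genes, on the scale of log2(normalised count + 1), grouped by role, with the standard error of the fit as bars. Black points are WT and orange points cKO, and filled points passed the test. The genes of mitosis lie between 0.39 and 3.15, and Mcm2 to Mcm7 between 0.07 and 0.61. All replication genes together lie between -0.91 and 3.24, so their range overlaps that of mitosis.

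Within licensing, the 6 subunits of the Mcm2 to Mcm7 hexamer were abundant in both subsets, and their differences did not pass the test. Their counts ran from 995 to 1820.2 in FO and from 1264 to 2352 in MZ of WT mice, and from 1106 to 1676 in FO and from 1190 to 2388 in MZ of cKO mice. The differences lay between 0.07 (Mcm5) and 0.43 (Mcm3) in WT, with limma adjusted p between 0.190 and 0.878, and between 0.15 (Mcm2) and 0.61 (Mcm3) in cKO, with limma adjusted p between 0.0912 and 0.513. Mcm3 in cKO, at 1.52-fold, exceeded the fold cutoff but had an adjusted p of 0.120 by limma. Both MZ libraries were above both FO libraries for 2 of the 6 in WT (28.2% of all genes) and 4 in cKO (32.0%). Mcm6, for one, had 1143 and 1591 in FO against 1302 and 2352 in MZ of WT mice, and 1532 and 1440.3 in FO against 2388 and 1715 in MZ of cKO mice. Its WT subsets overlapped and its cKO subsets did not, with a difference of 0.38 ± 0.289 (SE) in WT.

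Unlike the hexamer, Mcm10, which binds the helicase at the time of its activation, was scarce in FO and several-fold higher in MZ. It had 18.0 and 42.8 normalised counts in FO against 115 and 254 in MZ of WT mice, and 22.4 and 13.1 in FO against 274 and 106 in MZ of cKO mice. All 4 MZ libraries lay above all 4 FO libraries. The difference was 2.58 ± 0.619 (SE) in WT (5.96-fold, adjusted p = 0.0275 by limma) and 3.24 ± 0.619 in cKO (9.46-fold, adjusted p = 0.010 by limma). It was the largest difference among the replication genes in both genotypes.

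Cdc6, the loader ATPase, had 37.9 and 35.2 in FO against 74.2 and 157 in MZ of WT mice, and 30.2 and 31.2 in FO against 218 and 71.1 in MZ of cKO mice. Cdc45, the helicase cofactor, had 103 and 109 in FO against 189.7 and 313 in MZ of WT mice, and 79.5 and 86.6 in FO against 368 and 153 in MZ of cKO mice. For both genes every MZ library was above every FO library. They passed in cKO, with differences of 1.99 ± 0.538 (adjusted p = 0.0382 by limma) and 1.503 ± 0.405 (0.0373), and not in WT, with 1.54 ± 0.538 (0.0966) and 1.19 ± 0.405 (0.0876). Cdc45 shares 209 exonic bases with Ufd1 on the other strand, and whether the counting used strand is not given in the sources used here. Exonic bases are likewise shared with genes on the other strand by Mcm7, Pole, Ccna2, Cdc20, Plk1, Ube2c, Nusap1 and Prc1, and with Tex52 on the same strand by Foxm1, and the values of these genes carry the same uncertainty.

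Cdt1, the partner of Cdc6 in loading, ran the other way. It had 4645 and 2557 in FO against 2993 and 1705 in MZ of WT mice, and 4448 and 3567 in FO against 1977 and 2287 in MZ of cKO mice. In cKO both FO libraries lay above both MZ libraries, and in WT the subsets overlapped. The difference was -0.61 ± 0.325 in WT (adjusted p = 0.257 by limma) and -0.91 ± 0.325 in cKO (adjusted p = 0.0929 by limma), so neither passed. Per kilobase of exon Cdt1 had the highest level of the 47 genes in FO, 1147 in WT and 1276 in cKO.

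Of the GINS subunits that travel with the helicase, Gins1 had between 51.0 and 109.6 and Gins2 between 36.9 and 122 over the 8 libraries. Neither passed: the differences were 0.18 ± 0.409 and 0.60 ± 0.490 in WT and 0.47 and 0.81 in cKO. Gins2 shares 2758 exonic bases with Gse1 on the opposite strand, whose mean count of 1808 is far above the 66.2 of Gins2, so its values are uncertain.

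Among genes of the fork, nucleotide supply and chromatin assembly, 3 of 11 were higher in MZ in WT (7.41% of all genes) and 6 of 11 in cKO (8.18%), with medians of 0.69 and 0.94. Tyms, thymidylate synthase, had 60.9 and 59.0 in FO against 163 and 258 in MZ of WT mice, and 73.9 and 70.5 in FO against 257 and 166 in MZ of cKO mice. The difference was 1.76 ± 0.290 in WT (adjusted p = 0.00638 by limma) and 1.505 ± 0.290 in cKO (adjusted p = 0.0104 by limma). Uhrf1, which recruits the maintenance DNA methyltransferase to new DNA, had 201 and 277 in FO against 608 and 934 in MZ of WT mice, and 191 and 188 in FO against 839 and 467 in MZ of cKO mice. In both genes all MZ libraries were above all FO libraries.

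The 2 subunits of ribonucleotide reductase behaved differently. Rrm1, the large subunit, had 1198 and 1468 in FO against 1298 and 1986 in MZ of WT mice, and 1047 and 1258 in FO against 2017 and 1268 in MZ of cKO mice, and did not pass (0.28 ± 0.264 in WT, 0.48 in cKO). Rrm2, the small subunit, whose level is known to follow S phase, had 107 and 135 in FO against 255 and 659 in MZ of WT mice, and 95.2 and 109.7 in FO against 673 and 267 in MZ of cKO mice. It was higher in MZ in cKO by 2.04 ± 0.515 (adjusted p = 0.0295 by limma), and in WT it had 1.76 ± 0.515 (adjusted p = 0.0546 by limma). The difference between Rrm1 and Rrm2 was not tested.

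Chaf1a and Chaf1b, subunits of the chromatin assembly factor that places histones on new DNA, were higher in MZ in cKO, by 1.62 ± 0.452 (adjusted p = 0.0427 by limma) and 0.94 ± 0.171 (0.00842). Chaf1b was also higher in WT, by 0.69 ± 0.171 (adjusted p = 0.030 by limma), with 171 and 206 in FO against 276 and 335 in MZ of WT mice. Chaf1a overlaps Ubxn6 over 4648 exonic bases on the other strand and is uncertain. Pole, the catalytic subunit of the leading strand polymerase, was higher in MZ in cKO by 1.07 ± 0.295 (adjusted p = 0.0405 by limma).

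Pcna, the sliding clamp, was abundant in all libraries, with 2765 and 1983 in FO against 2723 and 2324 in MZ of WT mice, and 2723 and 2417 in FO against 3192 and 3104 in MZ of cKO mice. Its difference was 0.10 ± 0.160 in WT. The polymerase Pola1, the repair glycosylase Ung and the single-strand binding protein Rpa2 also did not pass, at 0.15, 0.24 and -0.23 in WT and 0.22, 0.43 and -0.26 in cKO. Rpa2 was, with Cdt1, the other gene of the 47 below 0.

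Levels in FO cells ran higher for a part of the replication genes than for any mitosis gene. Per kilobase of exon the median of the 23 replication genes was 44.4 in FO and 149 in MZ cells of WT mice, and the range ran from 3.95 (Mcm10) to 1147 (Cdt1) in WT FO. The 24 mitosis genes had a median per kilobase of 18.5 in WT FO and 68.4 in WT MZ, from 3.05 (Cenpf) to 63.7 (Aurka) in WT FO and from 14.1 (Ccnb1) to 254 (Mki67) in WT MZ. Above the highest mitosis gene in FO stood 10 of the 23 replication genes, Mcm2 to Mcm7, Cdt1, Pcna, Rrm1 and Rpa2, in both genotypes, and the other 13 did not. In cKO the medians per kilobase were 44.6 and 149 for replication and 15.1 and 58.7 for mitosis. These are levels, and the medians of the levels can move further than the median difference because they fall on different genes.

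**Figure D2:**
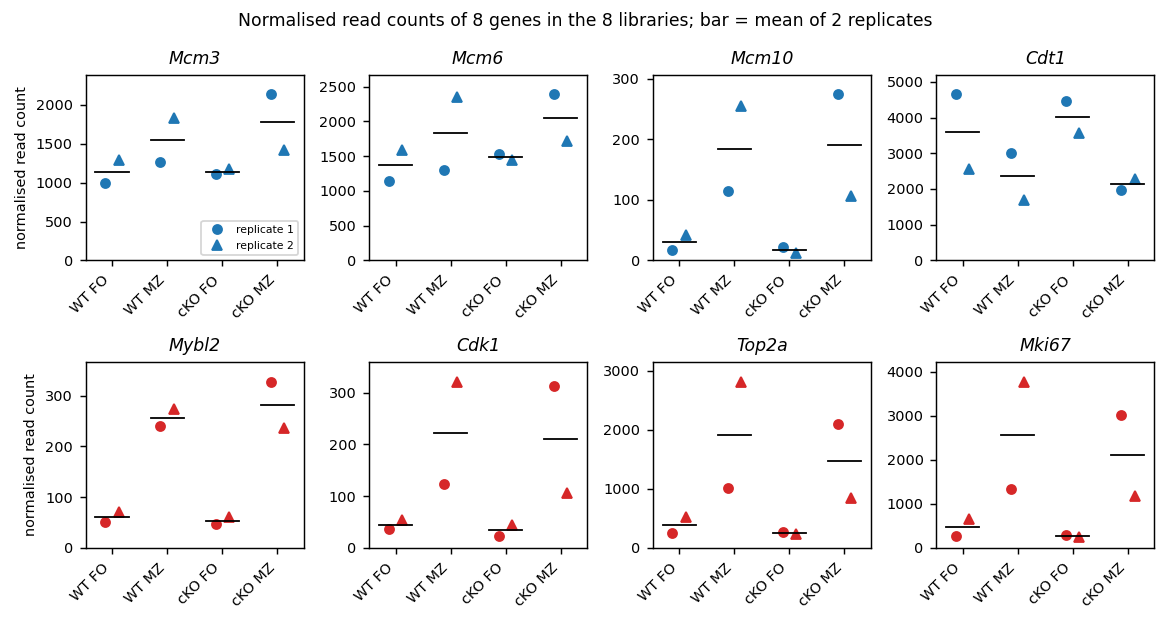
Normalised read counts of 8 genes in each of the 8 libraries, on linear axes from 0, with circles for replicate 1, triangles for replicate 2 and a bar at the mean, blue for replication and red for mitosis. Mcm3 and Mcm6 are high in every group, Cdt1 is lower in MZ than in FO of the cKO, and Mcm10, Mybl2, Cdk1, Top2a and Mki67 are low in every FO library.

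Of the 11 mitotic kinases, cyclins and checkpoint genes, 5 were higher in MZ in WT (7.41% of all genes) and 5 in cKO (8.18%), with medians of 1.596 and 1.49. Cdk1, the kinase of mitotic entry, had 35.9 and 53.3 in FO against 123 and 322 in MZ of WT mice, and 23.5 and 44.3 in FO against 314 and 106 in MZ of cKO mice. All MZ libraries were above all FO libraries, and the difference was 2.16 ± 0.624 in WT (adjusted p = 0.0525 by limma) and 2.46 ± 0.624 in cKO (adjusted p = 0.030 by limma). Ccna2, the cyclin of S phase and mitotic entry, had 40.9 and 79.9 in FO against 188 and 514 in MZ of WT mice, and 38.1 and 40.3 in FO against 483 and 154 in MZ of cKO mice. It passed in both genotypes, at 2.42 ± 0.634 (adjusted p = 0.0378 by limma) and 2.77 ± 0.634 (0.0208).

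The B-type cyclins did not pass. Ccnb1 had 0.69 ± 0.566 in WT and 1.54 ± 0.566 in cKO, and Ccnb2 had 1.596 ± 0.461 and 1.49 ± 0.461. A pseudogene of Ccnb2 carried a mean count of 120.3 beside the 109.5 of Ccnb2, so reads could be divided between them.

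Bub1, a spindle checkpoint kinase, had the largest difference of the 47 genes in WT. It had 14.0 and 40.9 in FO against 136 and 283 in MZ of WT mice, and 22.4 and 15.1 in FO against 230.2 and 86.6 in MZ of cKO mice. The difference was 2.98 ± 0.641 in WT (7.86-fold, adjusted p = 0.0182 by limma) and 2.87 ± 0.641 in cKO (7.33-fold, adjusted p = 0.0188 by limma). Its relative Bub1b had 1.21 ± 0.501 in WT and 1.31 ± 0.501 in cKO and did not pass.

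Ube2c, the ubiquitin conjugating enzyme of the anaphase-promoting complex, had 14.0 and 26.6 in FO against 78.0 and 206 in MZ of WT mice, and 11.2 and 14.1 in FO against 186 and 52.6 in MZ of cKO mice. It was 6.29-fold higher in MZ in WT (adjusted p = 0.0344 by limma) and 7.39-fold in cKO (adjusted p = 0.0227 by limma). Cdc20, the activator of the same complex, had 1.04 ± 0.403 and 0.75 ± 0.403 and did not pass.

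The Aurora kinases differed in their values. Aurkb, of the chromosomal passenger complex, had 115 and 206 in FO against 330.4 and 542 in MZ of WT mice, and 125 and 147 in FO against 422 and 259 in MZ of cKO mice, and was higher in MZ by 1.45 ± 0.363 (adjusted p = 0.032 by limma) and 1.28 ± 0.363 (0.0452). Aurka, of the spindle poles, had 207 and 116 in FO against 184 and 233 in MZ of WT mice, and 184 and 137 in FO against 230.2 and 193 in MZ of cKO mice. Its WT subsets overlapped, and it had the smallest difference of the mitosis genes in WT, 0.42 ± 0.298. Plk1, the Polo kinase, was higher in MZ in WT by 1.62 ± 0.454 (adjusted p = 0.0481 by limma) and had 1.39 ± 0.454 in cKO (adjusted p = 0.0705 by limma).

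Of the 11 spindle, kinetochore and chromosome genes, 7 were higher in MZ in WT (7.41% of all genes) and 9 in cKO (8.18%). Their medians, 2.10 and 2.41, were the highest of the role groups of more than 2 genes. The kinesins covered a wide span. Kif11, the motor that pushes the spindle poles apart, had 45.9 and 128 in FO against 282 and 830.5 in MZ of WT mice, and 54.9 and 47.3 in FO against 673 and 195 in MZ of cKO mice, a difference of 2.64 ± 0.728 in WT (adjusted p = 0.0453 by limma) and 2.81 ± 0.728 in cKO (0.0327). Kif23, of the midzone, was higher in MZ by 1.39 ± 0.317 (adjusted p = 0.0233 by limma) and 1.26 ± 0.317 (0.0295). Kif20a, of cytokinesis, had 1.11 ± 0.436 and 1.24 ± 0.436, did not pass, and overlaps Cdc23 over 1271 bases on the other strand.

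Cenpf, a kinetochore protein, had 20.96 and 73.3 in FO against 174 and 389 in MZ of WT mice, and 30.2 and 19.1 in FO against 345 and 142 in MZ of cKO mice. It had the largest difference of this group, 2.70 ± 0.676 in WT (adjusted p = 0.0322 by limma) and 3.15 ± 0.676 in cKO (adjusted p = 0.016 by limma), and the kinetochore motor Cenpe, at 1.49 ± 0.466 and 1.41 ± 0.466, did not pass. The spindle assembly factor Tpx2 and Birc5, the survivin of the passenger complex, passed in both genotypes, at 2.10 and 2.47 in WT and 2.43 and 2.70 in cKO. Nusap1 and Prc1, which bundle spindle microtubules, passed in cKO only, at 2.18 ± 0.573 and 1.92 ± 0.495, beside 1.95 ± 0.573 (adjusted p = 0.0557 by limma) and 1.44 ± 0.495 (0.091) in WT.

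Mki67, the antigen used to stain dividing cells, was the most abundant mitosis gene in MZ. It had 275 and 655 in FO against 1339 and 3777 in MZ of WT mice, and 288 and 239 in FO against 3028 and 1183 in MZ of cKO mice. Top2a, the topoisomerase that untangles sister chromatids, had 250.5 and 519 in FO against 1020.0 and 2812 in MZ of WT mice, and 274 and 225 in FO against 2096 and 837 in MZ of cKO mice. For both, every MZ library was above every FO library, and they were higher in MZ by 2.40 ± 0.616 and 2.23 ± 0.582 in WT and by 2.85 and 2.41 in cKO.

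Of the transcription factors of this program, Mybl2 gave the lowest p of the 47 genes and Foxm1 did not pass. Mybl2 (B-Myb), which acts with the MuvB complex, had 49.9 and 71.4 in FO against 241 and 274 in MZ of WT mice, and 45.9 and 61.4 in FO against 328 and 236 in MZ of cKO mice. The groups lay far apart beside their replicates, and the difference was 2.09 ± 0.270 in WT (adjusted p = 0.00226 by limma) and 2.37 ± 0.270 in cKO (0.00116). Foxm1, the factor of the G2 genes, had 0.53 ± 0.277 and 0.39 ± 0.277, with 275 and 271 in FO against 315 and 494 in MZ of WT mice. Mybl2 passed in both genotypes under all 19 alternatives, with an adjusted p of 0.0369 at most in WT and 0.0322 at most in cKO.

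Set against all genes, 32 of the 47 had all 4 MZ libraries above all 4 FO libraries (18.6% of all genes), 21 of mitosis and 11 of replication. In WT alone both MZ libraries were above both FO libraries for 34 of the 47 (28.2% of all genes) and in cKO for 39 (32.0%). The reverse, both FO above both MZ libraries, held for 1 in WT (Rpa2, 27.2% of all genes) and for 2 in cKO (Cdt1 and Rpa2, 33.1%). The 7 replication genes with an E2F match had a median difference of 0.30 in WT and 0.36 in cKO, and the 12 with a window and no match 0.93 and 1.22. The 13 mitosis genes with the CHR letters had 1.62 and 1.92, and the 6 without 2.02 and 2.28.

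**Figure D3:**
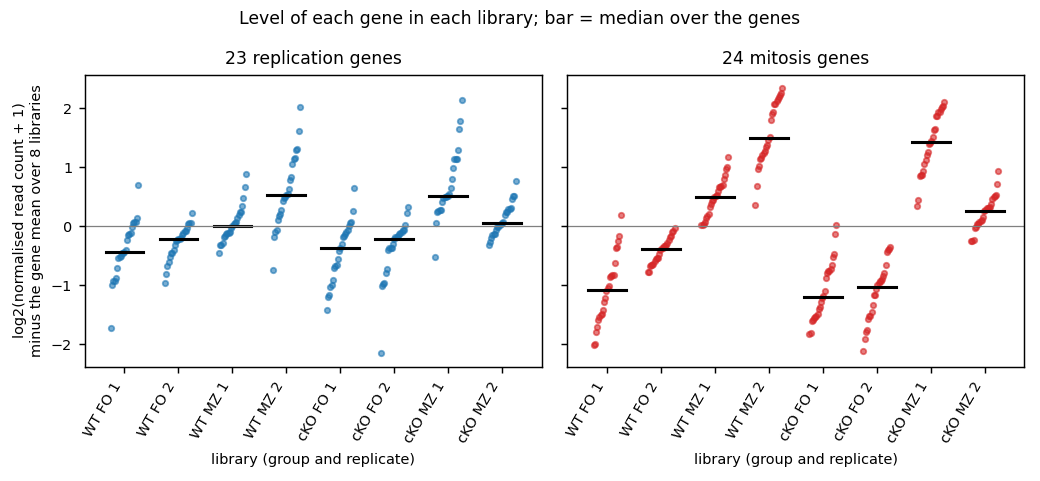
Level of each gene in each library as log2(normalised count + 1) minus the gene's mean over the 8 libraries, for 23 replication genes on the left and 24 mitosis genes on the right, with a bar at the median. The median of the mitosis genes is 1.49 in replicate 2 of WT MZ and 1.43 in replicate 1 of cKO MZ, against 0.50 and 0.26 in the other MZ libraries and between -1.20 and -0.39 in FO.

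Replicates differed from each other, most in MZ, and most of these genes moved together. In WT MZ all 24 mitosis genes were higher in replicate 2 than in replicate 1, by a median of 2.15-fold, and so were 19 of 23 replication genes, by 1.54-fold. In cKO MZ all 24 mitosis genes were higher in replicate 1, by a median of 2.31-fold, and 22 of 23 replication genes, by 1.48-fold. In WT FO 20 of 24 mitosis genes were higher in replicate 2, by a median of 1.64-fold, and 14 of 23 replication genes, by 1.11-fold, and in cKO FO 11 of 24 and 14 of 23. Summed, the mitosis genes came to 2377 and 3603 in FO against 6658 and 15451 in MZ of WT mice, and to 2319.96 and 2200.3 in FO against 12816 and 5621 in MZ of cKO mice. Each MZ library was thus above each FO library, and the MZ replicates stood further apart than the FO replicates. The replication genes summed to 19516 and 23466 in MZ of WT mice, to 25966 and 19806 in MZ of cKO mice, and to between 17578 and 19682 in FO.

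Replicates that were 2-fold or more apart numbered 21 of 47 genes in WT MZ (7.70% of all genes), 23 in cKO MZ (4.88%), 9 in WT FO (8.03%) and 0 in cKO FO (5.63%). In 31 of the 47 genes replicate 2 of WT MZ and replicate 1 of cKO MZ each stood 1.5-fold or more above the other library of their group (2.86% of all genes), 22 of mitosis and 9 of replication. Across the 47 genes, which share the same 4 libraries, the difference of replicate 2 from replicate 1 in WT MZ had a Pearson correlation of -0.83 and a Spearman correlation of -0.80 with that in cKO MZ, against a Pearson correlation of -0.30 across all genes tested. Between WT FO and WT MZ the Pearson correlation was 0.73 across the 47 genes and 0.59 across all genes, and the Spearman correlation across the 47 was also 0.73. Genes that were further apart in WT MZ tended to be further apart in cKO MZ and in WT FO.

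By role, the median SD of a group of 2 libraries, on the log2 scale, was 0.78 for the mitosis genes and 0.47 for the replication genes in WT MZ, and 0.85 and 0.40 in cKO MZ, against 0.14 for all genes in WT MZ. In cKO FO it was 0.19 and 0.12. Cdt1 was the 1 gene of the 47 that ran the other way in both genotypes: its value was -0.81 for replicate 2 minus replicate 1 in WT MZ and -0.21 for replicate 1 minus replicate 2 in cKO MZ, both on the log2 scale.

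**Figure D4:**
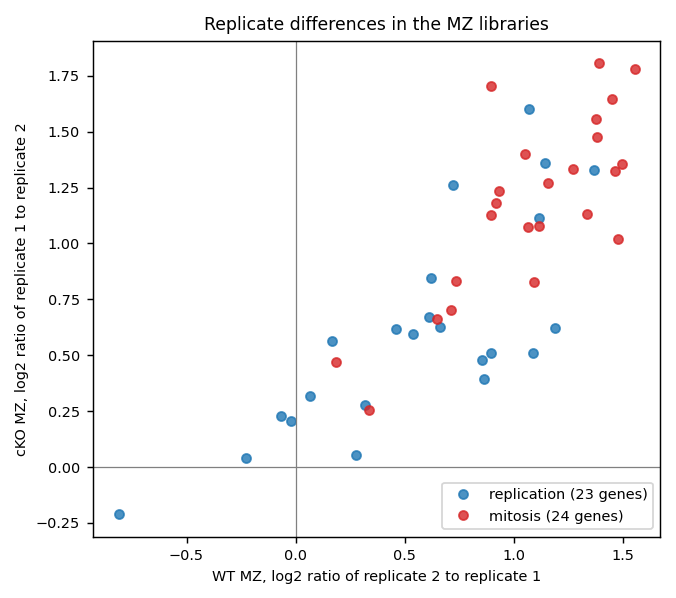
Log2 ratio of the MZ replicates for each of the 47 genes, computed on normalised count + 1, with replicate 2 over replicate 1 of WT MZ on the horizontal axis and replicate 1 over replicate 2 of cKO MZ on the vertical axis. All 24 mitosis genes (red) lie in the upper right, and Cdt1 (blue) at -0.81 lies at the lower left.

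Markers of other cells moved with these genes in part. The 11 erythroid markers summed to 14711 in replicate 1 of cKO MZ and to between 58.9 and 1121 elsewhere, and the 11 markers of early granulocytes to 1900.7 there and to at most 109.3 elsewhere. The erythroid and granulocyte defining markers Hbb-bs and Mpo had 7318 and 149 in that library. In replicate 2 of WT MZ, where the mitosis genes had their highest sum, the erythroid markers summed to 398 and the granulocyte markers to 44.4, and none of the 11 erythroid markers was at 0. The part of these cells in the mitosis values was not tested. Within replicate pairs the erythroid sum followed the order of the mitosis sum in 3 of 4, both WT pairs included, from 58.9 to 246 in FO and from 117 to 398 in MZ, and the granulocyte sum in 1 of 4.

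The sum of 7 myeloid markers followed the order of the mitosis sum in 4 of 4 replicate pairs, from 608 to 1212 in FO and from 697 to 1615 in MZ. None of these markers was at 0 in any library. Lyz2, Csf1r, Adgre1, C1qa and C1qb each followed that order in every pair. Cd68 ran opposite in both WT pairs and in cKO MZ, with 378 and 283 in MZ of WT and 336 and 384 in MZ of cKO mice. Itgam ran opposite in cKO FO, with 12.3 and 16.1. Of the 5 markers of pro and pre B cells, 3 had a row. Their sum followed the order of the mitosis sum in 4 of 4 pairs, but was low, between 3.09 and 36.9. The higher sum of each pair was mostly Rag1. Vpreb1, at no more than 3.99, ran opposite in each pair where it was detected. The plasma cell gene Jchain had 305 and 3692 in MZ of WT and 1615 and 524 in MZ of cKO mice, and it followed the mitosis order in 4 of 4 pairs. In each of these counts the cKO FO pair gave little order to follow. Its mitosis sums were 2320 and 2200, with 11 of 24 mitosis genes higher in replicate 2. The sum of the list of 8 plasma cell markers followed the mitosis order in 1 of 4 pairs, and most of that sum was Irf4. The other 7 markers, between 3991 and 9495 in sum, followed it in 4 of 4, but not each gene alone. Prdm1, of these 7, had 594 and 279 in MZ of WT and 322 and 351 in MZ of cKO mice, opposite to the mitosis sum. Xbp1 was opposite in both WT subsets, with 2764 and 2520 in FO and 2947 and 2789 in MZ. The 8 germinal centre markers summed to between 3643 and 4219 in FO and between 854 and 1419 in MZ, opposite to the mitosis genes, with most of it from Bcl6. The other 7 of that list summed to between 266.5 and 460.5 in FO and between 166.4 and 451.9 in MZ, which overlap, and followed the mitosis sum in 2 of 4 replicate pairs. The 8 T cell markers summed to between 760.5 and 1289, nearly all of it Lck, and the other 7 to between 26.94 and 86.94, in the order of the mitosis sum in 3 of 4 pairs. What part any of these has in the values was not tested.

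**Figure D5:**
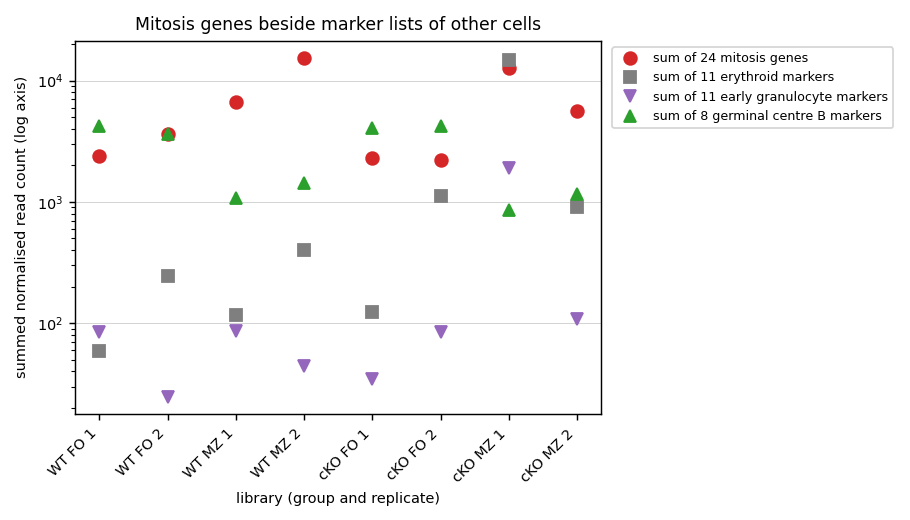
Summed normalised read counts per library on a log axis for the 24 mitosis genes (red circles), 11 erythroid (grey squares), 11 early granulocyte (purple triangles) and 8 germinal centre B cell markers (green triangles). The erythroid and granulocyte sums peak in replicate 1 of cKO MZ, at 14711 and 1900.7, and the mitosis sum is highest in replicate 2 of WT MZ, at 15451.

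Deletion of Gtf2i was compared within each subset. In MZ cells 0 of the 47 genes were called between cKO and WT, against 0.0339% of all genes higher and 0% lower, and in FO cells 0, against 0.0542% higher and 0.0135% lower. By limma 0 of the 47 had an unadjusted p under 0.05 in either subset, against 4.04% of all genes in MZ and 2.59% in FO. DESeq2 called 0 of the 47 in MZ (0.203% of all genes higher and 0.122% lower) and 0 in FO (0.129% and 0.0406%), and edgeR called 0 in MZ (0.0271% and 0%) and 0 in FO (0.0474% and 0.0135%). The median difference, cKO minus WT, was -0.24 for the mitosis and 0.10 for the replication genes in MZ, with standard errors of 0.504 and 0.289 in the median, and -0.34 and -0.10 in FO. In FO 22 of 24 mitosis genes had a value below 0 (7744 of all 14761 genes), the most Ccnb1, at -0.77 ± 0.566. In MZ 21 of 24 did (7832 of all genes). The mitosis genes share the same libraries and moved together between MZ replicates, so these counts are not of independent genes. In MZ both cKO libraries were above both WT libraries for 2 of the 47 genes (15.8% of all genes) and below for 0 (18.7%), and in FO above for 2 (10.9%) and below for 8 (13.1%). With errors of this size a moderate difference could not be detected.

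The test of whether the difference between MZ and FO depended on genotype called 0 of the 47 genes and 0% of all genes by limma, and 0 of the 47 and 0% of all genes by DESeq2 and by edgeR, and 0 of the 47 had an unadjusted p under 0.05 by limma (0.637% of all genes). The median of the interaction was 0.17 for the mitosis genes and 0.19 for the replication genes, where the median standard errors were 0.712 and 0.408. The calls made in one genotype alone, such as Cdc6, Cdk1 and Plk1, are therefore not shown to differ between genotypes.

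Other genes of the same pathways were read from lists of further members. Of 42 other replication genes 4 were higher (7.41% of all genes) and 2 lower (4.62%) in MZ in WT, with a median of 0.11. In cKO 7 were higher (8.18% of all genes) and 2 lower (5.54%), with a median of 0.10. The WT counts were near the shares of all genes. Clspn, a mediator of the replication checkpoint, Gmnn, the inhibitor of Cdt1, and Ticrr, which helps to activate the helicase, were higher in MZ in both genotypes, by 2.51, 1.27 and 1.25 in WT. Pold1, the catalytic subunit of the lagging strand polymerase, was lower, with 6044 and 5088 in FO against 2855 and 2770.3 in MZ of WT mice, and 8152 and 8119.7 in FO against 3709.7 and 3251 in MZ of cKO mice (-0.98 ± 0.107 in WT, limma adjusted p = 0.00113). The other lower gene was Rfc1, of the clamp loader, named after its values were seen, at -0.78 in WT and -0.68 in cKO. The 2 further GINS genes, Gins3 and Gins4, singled out after their values were seen, had 0.25 and -0.31 in WT, and Gins3 passed in cKO, at 0.67 ± 0.184 (adjusted p = 0.0393 by limma).

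Of 49 other mitosis genes 13 were higher (7.41% of all genes) and 1 lower (4.62%) in MZ in WT, with a median of 1.29. In cKO 18 were higher (8.18% of all genes) and 1 lower (5.54%), with a median of 1.34. Kif18b, a kinesin of the spindle ends, Espl1, the separase that cuts cohesin, Pbk, a mitotic kinase, and Hmmr, a spindle protein, had the largest differences among those called in both, 2.95, 2.83, 2.74 and 2.67 in WT. The gene that was lower was Cdc25b, a phosphatase that activates Cdk1, chosen here after its values were seen. It had 3854 and 4044 in FO against 1041 and 1492 in MZ of WT mice, and 3830.4 and 4181 in FO against 1259.8 and 1084 in MZ of cKO mice, a difference of -1.66 ± 0.165 in WT (adjusted p = 0.000741 by limma) and -1.78 ± 0.165 in cKO (0.000516). Their medians were lower than the 1.78 and 2.05 of the 24 mitosis genes, and the medians of both sets of mitosis genes were above those of both sets of replication genes.

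Upstream of replication, 2 of 9 G1 cyclin and Cdk genes were higher in MZ in both genotypes (6.30% of all genes) and none was lower. They were Cdc25a, the phosphatase of the G1 to S transition, at 0.98 ± 0.123 in WT (adjusted p = 0.0020 by limma) and 0.84 in cKO, and Cdk4, the kinase of the D-type cyclins, at 0.62 ± 0.122 (adjusted p = 0.0125 by limma) and 0.63. Of 7 Cdk inhibitor genes 5 passed the filter on low counts, and 2 of the 5 were lower in MZ in both genotypes. Of all genes 4.62% were lower in MZ in WT and 5.54% in cKO. Cdkn1a (p21) had 119 and 52.3 in FO against 14.4 and 19.0 in MZ of WT mice, and 84.0 and 63.4 in FO against 17.9 and 10.3 in MZ of cKO mice, -2.18 ± 0.465 in WT (adjusted p = 0.0175 by limma). Cdkn2d (p19) had 884 and 973 in FO against 200.3 and 352 in MZ of WT mice, -1.7999 ± 0.298 (adjusted p = 0.00644 by limma). The FO and MZ libraries of both inhibitors did not overlap in either genotype.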

How the data were processed

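Sorted FO and MZ B cells were profiled by RNA-seq of ribosomal RNA depleted libraries. The authors aligned the reads to mm10 with HISAT2, counted them on genes with featureCounts or HTSeq, and deposited the signal as counts divided by DESeq2 size factors, without replicate pooling. Whole reads (within 0.01) were recovered for 100% of the values. The table held 27928 genes after 256343 blank lines were left out, of which 27872 were found in GENCODE M21, used for exon lengths and overlaps. Depth was 21546552 to 25083552 reads, so counting error is small for all but low genes, and 2 libraries per group limit the precision.

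In R 4.3.3, limma 3.58.1 (lmFit, then eBayes with a trend) fitted log2(normalised count + 1) of 14761 genes over all 8 libraries. The pseudocount shrinks the differences of low genes. With 2 against 2 libraries an exact permutation test cannot pass. DESeq2 1.42.0 and edgeR 4.0.16 on the recovered reads were alternatives, beside a pseudocount of 0.5, no filter, no fold cutoff, other scalings (TMM, quantile, library total), a fit of the 4 libraries compared, a replicate block and each library left out. A fit without replicate 2 of WT MZ and replicate 1 of cKO MZ, and a block that exchanges the cKO MZ numbers, were added after seeing the data. The tests were checked on simulated data. The genes and lists were chosen with earlier results of these data known. Values were to be given for genes that passed, for extremes of level or difference in a role group and for replicates over 2-fold apart, and from other lists for up to 4 genes called in both genotypes, then in one. The 8 ATAC-seq samples were not analysed here.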

Additional observations from a re-analysis of the deposited data

How the results depend on the processing

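The number of these genes higher in MZ in WT, 17, was 10 without the filter on low counts, 3 in a fit of only the 4 WT libraries, 29 with DESeq2, 17 with edgeR and 2 without the 2 high MZ libraries (replicate 2 of WT MZ and replicate 1 of cKO MZ), and ran from 2 to 24 with each library left out. For replication genes in WT, 4, these were 2 in the 4-library fit, 8 with DESeq2, 1 without the 2 high libraries and 1 to 6, and for mitosis genes in WT, 13, they were 6 without the filter, 1 in the 4-library fit, 21 with DESeq2, 1 without the 2 high libraries and 1 to 18. In cKO the 24 calls became 31 with DESeq2, which also called Cdt1 lower in MZ, 23 with edgeR and 4 without the 2 high libraries, and ran from 1 (without replicate 1 of cKO MZ) to 27. The 9 replication calls became 5 without the filter, 2 without the 2 high libraries and 0 to 9, and the 15 mitosis calls 2 without the 2 high libraries and 1 to 18. The WT mitosis median, 1.78, was 1.18 without replicate 2 of WT MZ, or without both high libraries. With each library left out the medians ran from 1.18 to 2.14 and from 0.22 to 0.73 (mitosis and replication, WT), and from 1.51 to 2.54 and from 0.27 to 0.81 in cKO. Lower counts after a library is left out come with fewer samples in the fit, and the cause was not tested further.

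No difference past the threshold changed its sign. Among differences that did not pass, the range in WT with each library left out crossed 0 for Mcm2 (-0.020 to 0.30), Mcm5 (-0.16 to 0.29), Mcm6 (-0.050 to 0.80), Gins1 (-0.36 to 0.73), Rrm1 (-0.030 to 0.58), Pola1 (-0.28 to 0.59), Pcna (-0.14 to 0.34) and Ung (-0.11 to 0.58). For the first 6 the lowest value was that without replicate 2 of WT MZ, and it was the same without both high libraries, and for Pcna and Ung that without replicate 2 of WT FO. Mcm5 in cKO ran from -0.084, without replicate 1 of cKO MZ or both high libraries, to 0.53. With the replicate number as a block 19 genes were called higher in MZ in WT and 24 in cKO, and Cdt1 was called lower in MZ in cKO. Across all genes the deviations of same-numbered libraries correlated at 0.591 between WT FO and WT MZ, -0.0015 between cKO FO and cKO MZ and -0.296 between WT MZ and cKO MZ. The numbers thus did not pair the libraries alike in all groups, and the main fit did not use them. In WT the same-numbered libraries did move together, which the WT standard errors and p-values by limma leave out. With the numbers of cKO MZ exchanged the block called 0 of the 47 genes and 12 of all genes between cKO and WT in MZ. Leaving out a library and the scaling alternatives moved the genotype comparisons from 0 in no case.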

Other observations

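Irf4, a transcription factor of B cell activation and plasma cell differentiation, picked out after its values were seen, differed between replicates in the order opposite to the mitosis sum in 3 of the 4 groups. It had 28655 and 10907 normalised counts in FO against 37342 and 13512 in MZ of WT mice, and 27108 and 25256 in FO against 22260.4 and 34148 in MZ of cKO mice. Neither subset comparison called it by limma, with differences of 0.35 ± 0.547 in WT and 0.08 ± 0.547 in cKO.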
